A study of Caenorhabditis elegans with 4 samples.

Results

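The COH-1 peaks on chromosome X of Caenorhabditis elegans were taken from both deposited peak lists of a chromatin immunoprecipitation sequencing (ChIP-seq) study, as every peak whose chromosome is given as X. They numbered 793 of 2964 peaks in the list of ChIP replicate 1 and 469 of 2302 in that of ChIP replicate 2, together 1262 of 5266 peaks, or 24.0%. The lists were kept apart, and peaks with an overlap of 1 bp or more between the lists were called shared. Both libraries came from whole adult hermaphrodites of the strain fem-2(b245), which carries the b245 allele of fem-2 on chromosome III and was kept at 20 degrees Celsius, and chromatin was recovered with the rabbit polyclonal antiserum COH-1 SDQ0812. The 2 input libraries came from the same strain and stage and were not analysed here, so no peak is set against a control measured in the same way. The labels give the stage as young adults with a germline, while the growth protocol describes cultures grown until gravid. Whole worms were used, so germline and somatic chromatin cannot be told apart. The libraries carry replicate numbers, but nothing says that they came from separate cultures, and the spread between them may be technical. The deposited names of the lists hold tags that the labels do not explain, BC299 for replicate 1 and csr1 for replicate 2. All coordinates are those of WormBase build WS220.

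Cohesin is a ring-shaped complex that holds sister chromatids together and extrudes loops of chromatin. Its kleisin subunit closes the ring, and COH-1 is a kleisin of the worm that has been described mainly in somatic tissues. In hermaphrodites, which carry a pair of X chromosomes, a dosage compensation complex built around a condensin, a relative of cohesin, binds X and lowers its transcription. fem-2 belongs to the sex determination pathway and is needed for male development, including sperm. No genome sequence of build WS220 was used here, so the peaks are given by position, without bases and without the genes they cover.

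The typical COH-1 peak on X was narrow and of modest score, with a small number of broad and very strong sites. Widths on X ran from 787 bp to 23297 bp in replicate 1, with a median of 1354 bp and a middle 50% between 1100 and 2175 bp. In replicate 2 they ran from 710 bp to 17573 bp, with a median of 1388 bp and a middle 50% between 1093 and 2431 bp. The mean of the medians was 1371 ± 24.0 bp (SD, n = 2), so the lists were close in width. The score is the value that the peak caller MACS gave each peak. Its scale is not named in the lists, and it is compared within a list only. On X it ran from 50.04 to 3100 with a median of 119.42 in replicate 1, and from 51.31 to 3192.87 with a median of 240.11 in replicate 2. In replicate 1, 3 X peaks scored 3100 or more, beside 4 autosomal ones. In replicate 2, 15 X peaks did so, or 3.20%, beside 129 or 7.04% of its autosomal peaks. Several X peaks of each list tied at exactly 3100, so the score does not order them by strength. Wide X peaks were also the strong ones, with Spearman's rho between width and score of 0.86 across the 793 peaks of replicate 1 and 0.87 across the 469 of replicate 2. The same relation on the autosomes was 0.83 and 0.87. Peaks are not independent replicates, and width and score come from the same reads. The X peaks covered 1815 kb of X in replicate 1 and 1064 kb in replicate 2, which is 10.3% and 6.03% of its length up to the last peak.

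COH-1 peaks lay along the whole of X, and each list had between 28.8% and 39.4% of its X peaks in each part when X was cut into 3 parts of equal length. The first X peak began at base 6224 in replicate 2 and at 323692 in replicate 1, and the last ended at 17641707 and 17641587. Replicate 1 had 249 peaks in the left part (31.4%, exact 95% binomial interval 28.2% to 34.8%), 284 in the middle part (35.8%, 32.5% to 39.3%) and 260 in the right part (32.8%, 29.5% to 36.2%). Replicate 2 had 149 in the left part (31.8%, 27.6% to 36.2%), 135 in the middle (28.8%, 24.7% to 33.1%) and 185 in the right (39.4%, 34.99% to 44.03%). The lists thus differed in which part held most peaks, the middle in replicate 1 and the right in replicate 2. Among the 260 shared intervals, which join the overlapping peaks of both lists, the parts held 81, 80 and 99. Score and width had no steady trend from left to right: the rho of position was -0.0033 with score and -9.1e-05 with width in replicate 1, and 0.029 and 0.031 in replicate 2. By part, the median score was 118.42, 125 and 111 from left to right in replicate 1, and 212.34, 236 and 265 in replicate 2. Broad peaks of 5 kb or more, which made up 11.1% of the whole list of replicate 1 and 10.9% of that of replicate 2, were most frequent in the right part of both lists, with 19, 19 and 25 peaks in replicate 1 and 10, 9 and 19 in replicate 2, which was not tested. The median position of a peak was 8.56 Mb in replicate 1 and 9.54 Mb in replicate 2.

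In bins of 1 Mb, bins 5 and 14 held the most peaks in both lists and bin 1 the fewest, while other bins were ranked differently. Bin 5, from 4 to 5 Mb, held the most peaks in either list, 67 in replicate 1 and 54 in replicate 2. Bin 14, from 13 to 14 Mb, followed with 64 and 48. The next most filled bin was bin 8 in replicate 1, with 63 peaks against 28 there in replicate 2, and bin 6 in replicate 2, with 37 against 47 in replicate 1. Shared intervals were also most numerous in bins 5 and 14, with 28 and 27. These are counts per bin, and bin 18 at the right end covers only 0.642 Mb. It held 32 peaks of replicate 1, 26 of replicate 2 and 17 shared intervals, so it was more crowded per length than its counts show. Bin 1 was the emptiest in both lists, with 17 peaks in replicate 1 and 7 in replicate 2. Behind it came bin 2 with 27 and bin 13 with 30 in replicate 1, and bins 3 and 12 with 14 each in replicate 2. Over the 18 bins the numbers in replicate 1 and replicate 2 were related with rho = 0.51, which was 0.41 without bin 1, given as a description since bins are not replicates. Replicate 1 had more peaks in 17 of the 18 bins, at a median of 1.77 times the number in replicate 2. The ratio was widest in bin 3, where 50 peaks of replicate 1 stood beside 14 of replicate 2, a ratio of 3.57. Of those 50, 11 were shared, or 22%, against 38.3% of all X peaks of replicate 1. Bins 12 and 1 had similar shares in replicate 1, at 21.9% and 23.5%. Bin 13 was the exception, with 30 and 33 peaks, among the emptiest bins of replicate 1 but among the fuller ones of replicate 2. There 15 of the 33 replicate 2 peaks were not shared. The shared part was 54.5%, against 76.5% of all X peaks of replicate 2, and bin 1 was near it at 57.1%.

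**Figure D1:**
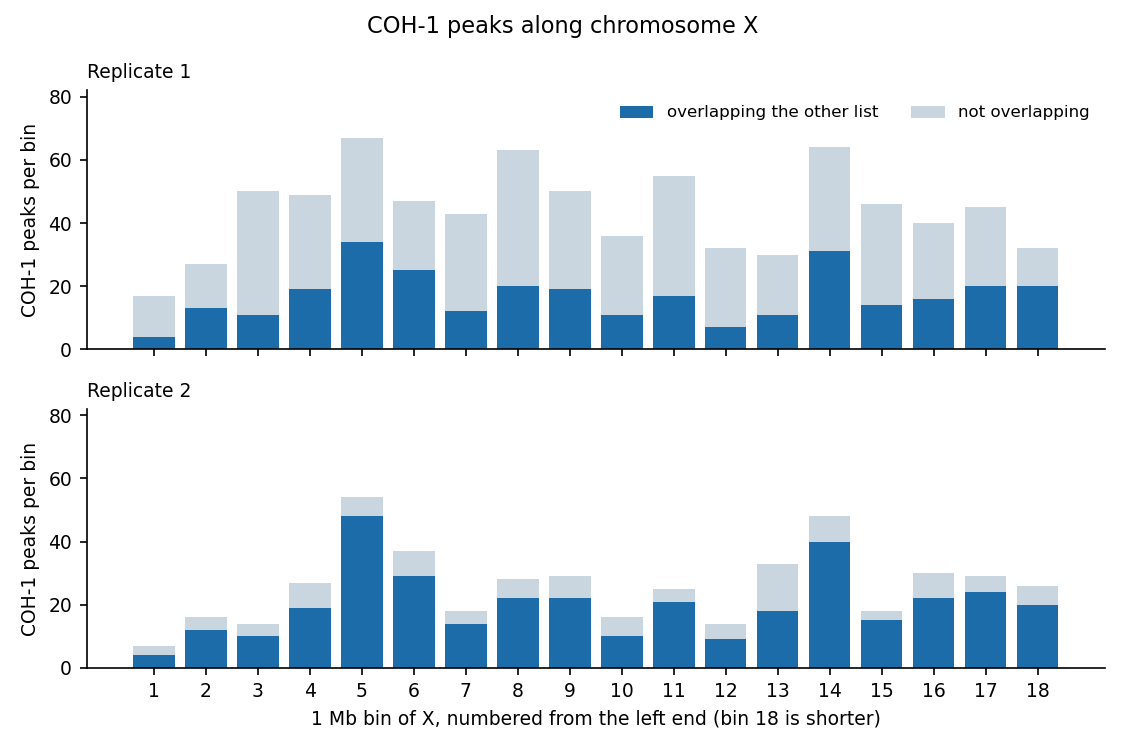
Number of COH-1 peaks in each 1 Mb bin of X (bin 18 covers only the last 0.642 Mb), from the left end to the right end, in replicate 1 (top) and replicate 2 (bottom), with dark bars for peaks that overlap the other list and pale bars for the rest. Bins 5 and 14 are the tallest in both lists (67 and 64 in replicate 1, 54 and 48 in replicate 2), and replicate 1 has many more pale peaks.

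X peaks were found again in the other list less often than autosomal peaks in replicate 1, and more often in replicate 2. Of the X peaks of replicate 1, 304 of 793 were shared, or 38.3% (exact 95% interval 34.9% to 41.8%), against 1125 of 2171 autosomal peaks, or 51.8% (49.7% to 53.9%), and 48.2% over the whole list. The X share was thus -13.5 percentage points from the autosomal one (two-sided Fisher's exact test, Benjamini-Hochberg adjusted p = 6.74e-10 over 8 tests of X against the autosomes). In replicate 2, 359 of 469 X peaks were shared, or 76.5% (72.4% to 80.3%), against 1258 of 1833 autosomal peaks, or 68.6% (66.5% to 70.8%), and 70.2% over the whole list. Here the difference was 7.92 points (Fisher's exact test, adjusted p = 0.00165). X stood outside the range of the single autosomes both times, which was 46.1% to 56.5% in replicate 1 and 66.3% to 71.2% in replicate 2. The number of peaks that could be matched moved with these shares: replicate 1 had 1.69 times as many peaks as replicate 2 on X and 1.18 times as many on the autosomes. With the lists cut to equal length, the difference was -16.2 points in replicate 1 (Fisher's exact test, unadjusted p = 3.75e-12). In replicate 2 it was then 8.85 points (Fisher's exact test, unadjusted p = 0.000355). X still held 637 peaks of replicate 1 beside 469 of replicate 2, and numbers made equal on X were not tested. After merging within 10 kb, the differences were -13.6 points in replicate 1 and 9.69 points in replicate 2. With midpoints within 500 bp in place of overlap, the differences were -2.11 points in replicate 1 (Fisher's exact test, unadjusted p = 0.234) and 8.17 points in replicate 2, while the difference of replicate 2 was 3.46 points under a reciprocal overlap of 50% (Fisher's exact test, unadjusted p = 0.177) and 3.10 points with the stronger 50% of each list (p = 0.414). These and all later Fisher's exact tests count peaks as independent although neighbours cluster, so their p-values are too small. The 2 lists allow no test over samples.

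The surplus of X peaks in replicate 1 lay mostly in peaks with no partner. Shared peaks of replicate 1 had a density of 17.2 per Mb on X, set against 13.7 on the autosomes (ratio 1.26). Its unshared peaks had a density of 27.7 per Mb on X, set against 12.7 on the autosomes (ratio 2.18), and no autosome exceeded 16.2. In replicate 2 the pattern was turned round, with 20.3 shared peaks per Mb on X, set against 15.3 on the autosomes (ratio 1.33), and 6.24 unshared ones, set against 6.98 (ratio 0.893). When each list was split by score into 10 classes of equal size, X held between 22.2% and 33.0% of the peaks of every class in replicate 1. The lowest of these shares was in the weakest class and the highest in the sixth class from below, so the X surplus of replicate 1 was not limited to its weakest peaks. In replicate 2 the X share peaked at 24.8% in the fifth class and was lowest in the strongest, at 14.3%. In all 10 classes of replicate 1, X peaks were shared less often than autosomal peaks. The gap ran from 4.66 points in the strongest class, with 90.4% of X peaks and 95.1% of autosomal peaks shared, to 28.2 points in the sixth, with 27.6% and 55.8%. In replicate 2 only the strongest class had a lower share on X, at 93.9%, than on the autosomes, at 97.0%. Counted in bases, 788 kb of X were covered in both lists, which is 43.4% of the replicate 1 and 74.1% of the replicate 2 coverage of X. On the autosomes these shares were 53.5% and 67.2%.

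**Figure D2:**
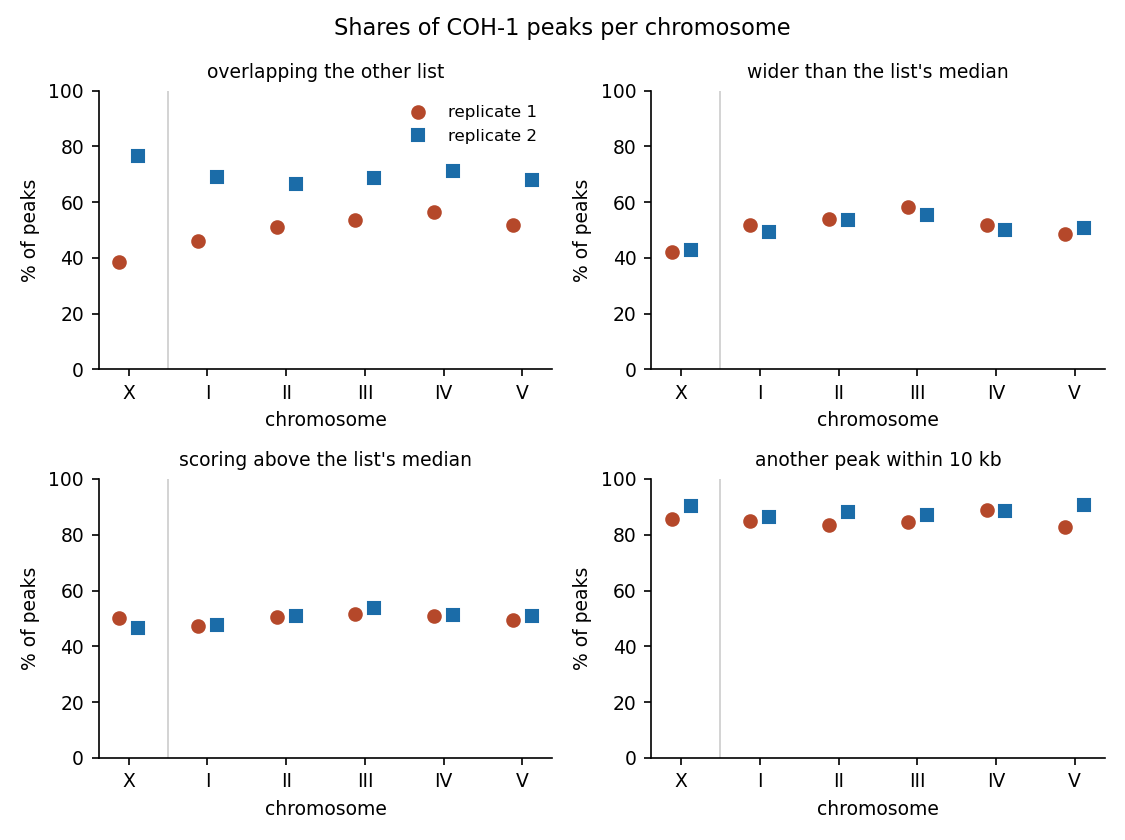
Share of the COH-1 peaks of each chromosome (percent, X left of the autosomes I to V) that overlapped the other list, were wider than the median of their list, scored above it, or had another peak within 10 kb, with circles for replicate 1 and squares for replicate 2. X lies outside the autosomes for overlap (38.3% in replicate 1 and 76.5% in replicate 2) and below all of them for width (42.2% and 42.9%).

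X peaks were narrower than autosomal peaks in both lists, while the share of peaks above the median score did not differ past the threshold. The median width was 1371 ± 24.0 bp on X and 1596 ± 17.7 bp on the autosomes (SD, n = 2 lists each). In replicate 1, 335 of 793 X peaks were wider than the median of the whole list, or 42.2% (38.8% to 45.8%), against 52.8% of autosomal peaks (50.7% to 54.95%), which puts X at -10.6 points (two-sided Fisher's exact test, adjusted p = 1.6e-06). In replicate 2 it was 201 of 469, or 42.9% (38.3% to 47.5%), against 51.8% (49.5% to 54.1%), which puts X at -8.92 points (Fisher's exact test, adjusted p = 0.00165). The share was below that of every single autosome in both lists. Broad peaks of 5 kb or more made up 63 of the 793 X peaks in replicate 1, or 7.94%, beside 11.1% of its whole list. In replicate 2 they made up 38 of 469, or 8.10%, beside 10.9% of the whole list. When peaks no more than 10 kb apart were first merged within a list, the width difference was only -3.67 points in replicate 1 (Fisher's exact test, unadjusted p = 0.306) and -2.41 points in replicate 2 (Fisher's exact test, unadjusted p = 0.649). With the stronger 50% of each list it was -16.5 points in replicate 1 and -7.30 points in replicate 2, where it missed the threshold (Fisher's exact test, unadjusted p = 0.0599). The difference was thus detected for single called peaks, and its call was lost for merged sites.

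X peaks of replicate 1 were narrower than autosomal peaks of like score, and those of replicate 2 less clearly so. X peaks scored above the median of the list in 50.3% of cases in replicate 1, against 49.9% for autosomal peaks (Fisher's exact test, adjusted p = 0.868). In replicate 2 these shares were 46.5% and 50.9% (Fisher's exact test, adjusted p = 0.156), and X was below every single autosome, of which the lowest had 47.5%. Among the strongest 10% of a list X was lower in both, but past the threshold in replicate 2 alone, where 7.04% of X peaks and 10.7% of autosomal peaks belonged to that class (Fisher's exact test, unadjusted p = 0.0157). Within the 10 score classes the median width was smaller on X in all 10 classes of replicate 1 and in 7 of 10 in replicate 2. In the strongest class it was 6263 bp on X and 7079 bp on the autosomes in replicate 1, and 5474 bp and 5953 bp in replicate 2. In the second strongest class the lists disagreed, with 3285 bp on X and 3455 bp on the autosomes in replicate 1 but 4369 bp and 3721 bp in replicate 2. With each peak set against the median width of its own score class, the difference was -15.0 points in replicate 1 (Fisher's exact test, unadjusted p = 6.02e-13) and -4.36 points in replicate 2 (Fisher's exact test, unadjusted p = 0.0977). This last comparison was added after the values were seen.

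**Figure D3:**
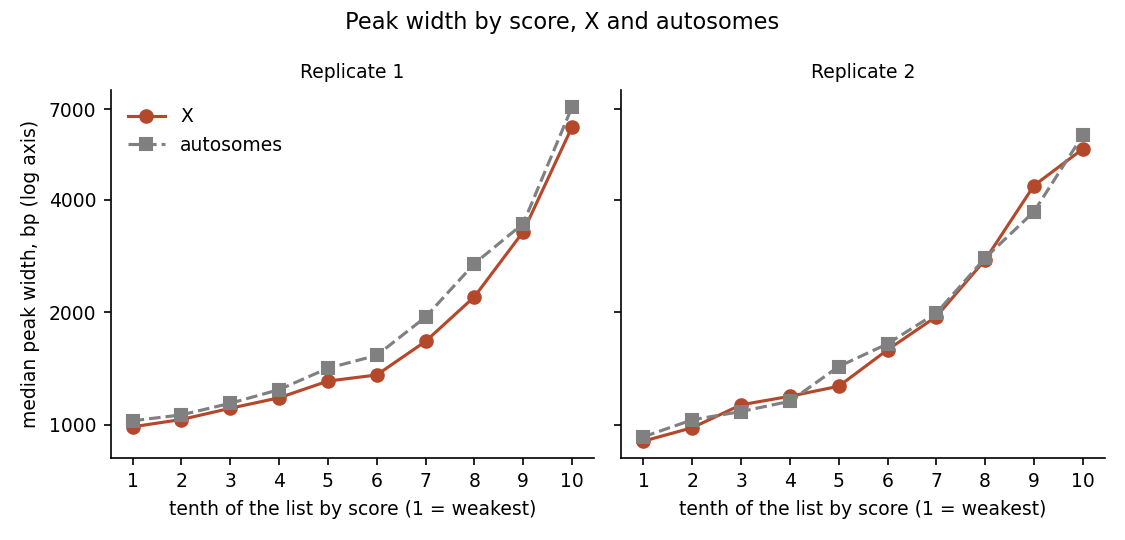
Median width of COH-1 peaks in bp (log axis) in 10 equal classes of each list by score, from the weakest (1) to the strongest (10), for X (circles) and the autosomes (squares). Width climbs with score on both, and X lies below the autosomes in 10 classes of replicate 1 and in 7 of replicate 2.

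Within X, the shared peaks were the stronger and wider ones. Shared X peaks of replicate 1 had a median score of 208 and a median width of 1956 bp, against 95.3 and 1224 bp for its unshared X peaks. In replicate 2 the medians were 299.69 and 1556 bp for shared and 149.72 and 1194 bp for unshared X peaks. In replicate 1, 69.4% of the shared and 37.8% of the unshared X peaks scored above the X median, or 31.6 points more (two-sided Fisher's exact test, adjusted p = 6.94e-18 over 2 lists). In replicate 2 these were 57.1% and 26.4%, or 30.7 points more (Fisher's exact test, adjusted p = 1.71e-08). A wide peak meets others more easily. With midpoints within 500 bp, the difference was 14.1 points in replicate 1 but -3.09 points in replicate 2 (Fisher's exact test, unadjusted p = 0.563). That rule can in turn miss wide peaks that overlap, since their midpoints may lie far apart, so neither rule is free of width. Broad X peaks nearly always had a partner: 57 of 63 did so in replicate 1 and 37 of 38 did so in replicate 2. The shares, 90.5% and 97.4% on X, were near those of broad autosomal peaks, 92.9% and 92.5%.

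Most unshared X peaks of replicate 2 lay within 5 kb of a replicate 1 peak, while those of replicate 1 often lay farther from any replicate 2 peak. Such distances depend on the number of peaks per length in the other list, which on X was 45.0 per Mb in replicate 1 and 26.6 in replicate 2. The median distance from an unshared X peak to the nearest peak of the other list was 14.1 kb in replicate 1 and 1.18 kb in replicate 2. Of the 489 unshared X peaks of replicate 1, 72 (14.7%) were within 1 kb of a replicate 2 peak, against 15.6% on the autosomes. Within 5 kb were 31.9% of them, against 37.6% on the autosomes. More than 50 kb away were 99 of them, beside 185 of 1046 on the autosomes. Of the 110 of replicate 2, 52 (47.3%, against 25.6% on the autosomes) were within 1 kb. Within 5 kb were 89 (80.9%), against 60.2% on the autosomes, so most unshared autosomal peaks of replicate 2 were that near too. Only 1 X peak was more than 50 kb away. That single peak is the one at the left end of X, which began at base 6224. On the autosomes the medians were 10.2 kb in replicate 1 and 3.16 kb in replicate 2, where 55 of 575 unshared peaks were more than 50 kb away.

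A handful of strong X peaks had no partner. In replicate 1 the strongest was the peak from 6245104 to 6261524, 16.4 kb wide, with a score of 2763.42, the sixth highest on X, and 5.19 kb from the nearest replicate 2 peak. It was followed by the peaks from 4334458 to 4340897 (score 1041.38) and from 3125123 to 3129020 (score 1040.48), 42.8 kb and 3.76 kb from a replicate 2 peak. The widest X peak of all, from 6731710 to 6755006, was also unshared at 23.3 kb and a score of 934.6, yet lay only 0.117 kb from a replicate 2 peak. The fifth, from 10595791 to 10600708, scored 843.02 at a distance of 24.3 kb. In replicate 2 the strongest without a partner were those from 12516929 to 12520051 (score 2815.49) and from 4209146 to 4218965 (score 2342.66), both close to a replicate 1 peak at 1.996 kb and 2.03 kb. The next, from 15806673 to 15811641, scored 1151.8 and lay 28.9 kb away. The remaining ones, from 12512508 to 12515468 (score 920.44) and from 5969315 to 5972543 (score 870.25), were 6.58 kb and 0.411 kb away. Of these 10 peaks, the ones at 42.8, 28.9 and 24.3 kb were thus the only ones farther than 10 kb from the other list.

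The 260 shared intervals on X had a median width of 3010 bp, against 3383 bp for the 929 shared intervals on the autosomes, and the widest on X spanned 20.2 kb. Ranked by the mean of their score ranks among the X peaks of each list, the best 20 spanned between 4.98 and 19.5 kb (median 11.2 kb). Their lowest score was 810.12 in replicate 1 and 1780.53 in replicate 2. Most of them lay in the right part of X: the left, middle and right parts held 4, 4 and 12 of the 20, and 15 of 20 (75%) lay to the right of 10 Mb, where 45.8% of all shared X intervals lay. This is a count over sites picked by score, and it was not tested.

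The best ranked interval, from 11599807 to 11611823, was called as 1 peak in replicate 1 (score 3100) and as 4 peaks in replicate 2 (best score 3192.87). From 10565780 to 10572367 a single peak of each list scored 2278.17 in replicate 1 and 3186.25 in replicate 2. The interval from 13138261 to 13150019 scored 3100 in both lists, as 1 peak of replicate 1 and 2 of replicate 2. All of these were strong in both lists, and those at 11599807 and 13138261 were cut into more peaks in replicate 2. The strongest interval of the left part, from 2965111 to 2978236, was the opposite case, with 3 peaks in replicate 1 (best score 2861.12) and 1 in replicate 2 (score 3100).

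Further right, a run of strong sites lay between 14 and 18 Mb. The interval from 14497511 to 14510930 scored 2435.5 in replicate 1 and 3100 in replicate 2, and its neighbour from 14554884 to 14569421 scored 1282.66 and 2125.48. The interval from 14814302 to 14826905 scored 1874.29 and 2878.23, that from 15334555 to 15346991 scored 2897.86 and 2668.08, and that from 15598218 to 15617686 scored 982 and 3100. Ranked among the X peaks of its own list, the site at 15334555 stood at 4 in replicate 1 and at 22 in replicate 2, while that at 15598218 stood at 38 in replicate 1 and among the ties at 3100 in replicate 2. Those from 16608700 to 16618560 and from 16926580 to 16936340 scored 1869.19 and 1834.31 in replicate 1 and 3100 each in replicate 2. Close to the right end, the interval from 17475573 to 17485944 scored 2002.25 and 2849.19, and that from 17630326 to 17637164 scored 1060.4 and 3100. The last shared interval of X, from 17640379 to 17641707, was weak in both lists, with scores of 96.67 and 147.61.

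The other members of the best 20 were spread over the rest of X. A pair of neighbours, from 12903237 to 12908280 and from 12908420 to 12920021, scored 1035.39 and 810.12 in replicate 1 and 3100 each in replicate 2. The interval from 10762579 to 10778053 scored 1002.51 in replicate 1 and 3100 in replicate 2. In the left and middle parts there were the intervals from 3086779 to 3094510 (scores 1150.21 and 2032.52), from 4220972 to 4225954 (1615.38 and 1780.53), from 5118725 to 5125359 (1585 and 3100) and from 7229003 to 7239867 (1137.83 and 2542.36). The interval at 4220972 was the narrowest of the 20, at 4.98 kb, and had a single peak in each list, 4927 bp wide in replicate 1 and 4983 bp in replicate 2.

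**Figure D4:**
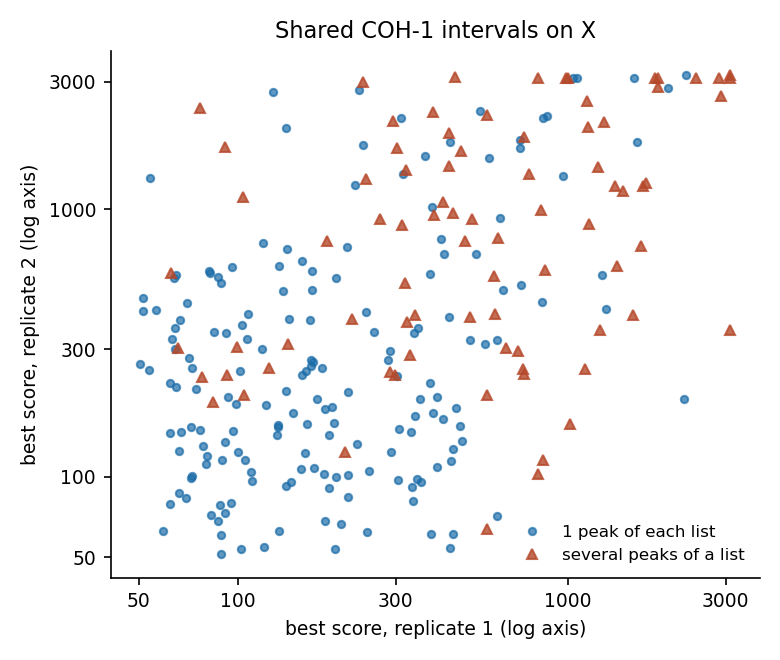
Best score of each of the 260 shared COH-1 intervals on X in replicate 1 (x) and replicate 2 (y), both on log axes and each on the scale of its own list, with circles for the 178 intervals of 1 peak from each list and triangles for the 82 that held several peaks of a list. The points spread widely around the upward trend (rho = 0.44), and 14 of the best 20 intervals are triangles.

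Where each list had 1 peak in a shared interval, the centres were often near each other and the extents differed. In the 178 X intervals with 1 peak of each list, the midpoints were a median of 235 bp apart (middle 50% 99 to 572 bp), and 126 of 178, or 70.8%, were within 500 bp. On the autosomes the median was 325 bp over 626 such intervals, and 60.7% were within 500 bp. These pairs were picked by overlap, which itself limits how far apart midpoints can lie, more so for narrow peaks. The median widths in replicates 1 and 2 were 1554.5 and 1330.5 bp on X, and 1821.5 and 1635.5 bp on the autosomes. The replicate 1 peak was the wider one in 127 of the 178 X intervals (71.3%), against 55.6% on the autosomes. In 92 of the 178 the narrower peak lay wholly inside the wider one. No X peak had the same borders in both lists. The extreme case was the peak of replicate 1 from 8008416 to 8028475, 20.1 kb wide with a score of 1304.7, whose partner in replicate 2 was 1304 bp wide and scored 424.97.

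**Figure D5:**
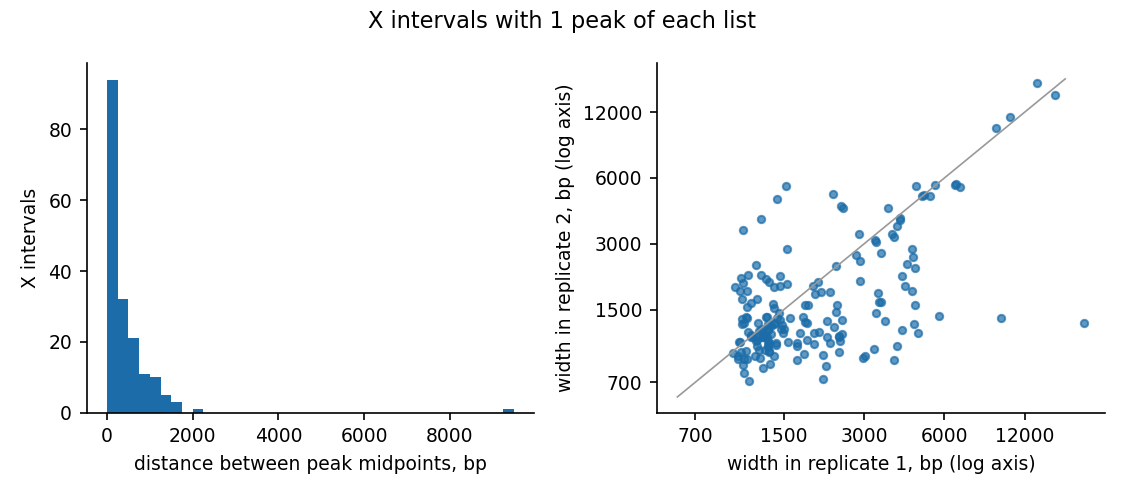
For the 178 X intervals with 1 COH-1 peak of each list, the distance between the midpoints in bp (left, number of intervals per 250 bp) and the widths in replicate 1 (x) and replicate 2 (y) in bp on log axes with the line of equality (right). Most midpoints fall within 500 bp (126 of 178), and 127 points lie on the side where the replicate 1 peak is wider.

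In 82 X intervals at least 1 list had several peaks. Replicate 2 had more peaks than replicate 1 in 47 of them, replicate 1 had more in 18, and both had the same number in 17. Intervals with several peaks were 31.5% of those on X and 32.6% of those on the autosomes, and replicate 2 had more peaks in 57.3% and 55.1% of them, so X was near the autosomes in both respects. The most divided site on X was the interval from 4515204 to 4535408. There replicate 1 called a single peak of 20.2 kb with a score of only 76.66, ranked 574 on X, while replicate 2 called 9 peaks with a best score of 2398.81. A second site of this kind, from 4956462 to 4966397, was 1 peak of replicate 1 at a score of 3100 and 5 peaks of replicate 2 with a best score of 352.76. Strength was thus not ranked alike at every divided site. Among the 5 widest X peaks of replicate 2, that from 8468214 to 8482133 was likewise wide and weak, at 13.9 kb and a score of 63.46. The other 4 were those from 4136370 to 4153942 (17.6 kb, score 1068.14), from 13345601 to 13361890 (16.3 kb, 500.41), from 14554884 to 14569421 (14.5 kb, 2125.48) and from 11026385 to 11040788 (14.4 kb, 323.99). All 5 were shared, and so were 3 of the 5 widest of replicate 1.

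Most COH-1 peaks on X had a close neighbour, as autosomal peaks did. The distance from the end of a peak to the start of the next had a median of 2695 bp in replicate 1, with a middle 50% from 467 bp to 23.3 kb. In replicate 2 the median was 1979 bp, with a middle 50% from 338 bp to 38.8 kb. Gaps under 1 kb made up 282 of 792 (35.6%) on X against 32.4% on the autosomes in replicate 1, and 194 of 468 (41.5%) against 34.6% in replicate 2. Gaps under 100 bp made up 6.31% on X against 7.57% on the autosomes in replicate 1, and 10.3% against 7.44% in replicate 2, and none of these differences was tested. Another peak of the same list lay within 10 kb of 85.6% of X peaks in replicate 1, against 84.9% of autosomal peaks (two-sided Fisher's exact test, adjusted p = 0.781). In replicate 2 it was 90.2% on X against 88.2% (Fisher's exact test, adjusted p = 0.339). With a distance of 5 kb, replicate 2 had 88.1% on X and 81.2% on the autosomes (Fisher's exact test, unadjusted p = 0.000373), and replicate 1 had 78.8% and 77.1% (Fisher's exact test, unadjusted p = 0.345). These shares depend on the number of peaks per length, which in replicate 1 was 45.0 for each Mb of X and 26.4 for each Mb of the autosomes, and in replicate 2 was 26.6 and 22.3.

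Merging of peaks no more than 10 kb apart left 286 sites on X in replicate 1, with 2.77 peaks per site, and 148 in replicate 2, with 3.17. On the autosomes there were 2.53 and 2.83 peaks per site. Of the X sites, 114 in replicate 1 (39.9%) and 46 in replicate 2 (31.1%) were single peaks, near the 38.1% and 33.4% of autosomal sites. Sites of 5 peaks or more numbered 48 and 33 on X, and held 42.4% and 47.5% of the X peaks, against 32.4% and 41.9% of autosomal peaks. Many X peaks thus belonged to crowded sites in both lists. The share in such sites depends on the number of peaks per length, which was higher on X in both lists, and the comparison was not tested.

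The most crowded sites of the lists were partly the same. In replicate 2 the first was that from 4481047 to 4534885, 53.8 kb long, whose 18 peaks were all shared. In replicate 1 the same stretch held 9 peaks, from 4481327 to 4535408, of which 8 were shared. Scores there ranged from 71.14 to 1572.58 in replicate 1 and from 55.53 to 2398.81 in replicate 2, and 2 peaks of each list scored 1000 or more. The best peaks of the lists lay at different places. The interval from 4501668 to 4508928 scored 1572.58 in replicate 1 and 401.68 in replicate 2, and that at 4515204 scored 76.66 and 2398.81. Only the interval from 4493112 to 4501376 was above 1000 in both, at 1468.66 and 1168.79. The site at 15334555 was in the leading group of both lists, with 13 peaks in each: it ran to 15388494 in replicate 1, where 8 were shared, and from 15334766 to 15385217 in replicate 2, where all 13 were shared. The largest site of replicate 1, from 10617573 to 10695720, had 17 peaks over 78.1 kb, 8 of them shared, and no score above 576.73. The second of replicate 2, from 13313659 to 13363811, had 14 peaks, 10 of them shared, and no score above 751.9. In replicate 1 there followed 3 sites of 11 peaks, from 5809878 to 5847933, from 6638515 to 6668581 and from 7210298 to 7246885, with 8, 7 and 3 shared peaks.

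Long stretches of X without COH-1 were less frequent than on the autosomes when the lists were pooled, and not in replicate 2 alone. The longest without a peak of either list ran from 1627606 to 2069939, or 442 kb, followed by 7417 to 323691 (316 kb), 6812441 to 7067256 (255 kb), 3256265 to 3464137 (208 kb) and 14297811 to 14490765 (193 kb). Of these 5, 3 lay in the left part of X. Stretches of more than 200 kb numbered 4 on X and 72 on the autosomes, which is 0.227 and 0.874 per Mb, and the longest on an autosome was 849 kb. Within the lists, gaps of more than 100 kb had a density of 2.04 per Mb of X, set against 2.48 per Mb of the autosomes, for replicate 1. For replicate 2 it was 3.40 against 3.00, and the longest X gap was 541 kb. These differences were not tested, and they move with the larger number of X peaks in replicate 1.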

How the data were processed

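COH-1 ChIP-seq peaks from 2 libraries of fem-2(b245) worms were used, and 2 input libraries were not analysed here. The submitters' processing notes name BWA and the build ce10. Per the file headers, positions are those of WormBase WS220, and the lists name MACS as the source of each peak. Each library has its own list, so replicates were not pooled. Versions, threshold and control: not given in the sources used here. Each deposited score is the authors' value for its peak. Depth is unknown because the lists give no reads, and intervals cover counting error only.

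The tools were bedtools 2.31.1 for overlaps, and otherwise Python 3.11.15, numpy 2.4.6, pandas 2.3.3, scipy 1.17.1 and matplotlib 3.10.9. Chromosome lengths were counted up to the final peak in either of the lists (17.6 Mb for X, 82.4 Mb for the 5 autosomes). X was set against the autosomes by Fisher's exact tests, two-sided, for 4 measures in each list, with Benjamini-Hochberg adjustment over 8 tests. Intervals are exact 95% binomial (Clopper-Pearson). Named regions followed a rule: the best 20 shared intervals, the 5 strongest unshared and 5 widest peaks per list, the 5 longest empty stretches, the 3 largest sites with ties, and the 3 fullest and emptiest bins. Exceptions chosen after their values were seen are the intervals at 17640379, 8008416, 4515204 and 4956462 and bin 3 in its ratio. Also outside the rule are the intervals at 4501668 and 4493112, bin 18 and the limit of 10 Mb for the best 20. The peaks, measures and rules were chosen with earlier results of these data known. Alternatives covered the overlap rule, the stronger 50% of each list, equal list lengths, merging within 10 kb, other limits of width, score and distance, and each list alone. On 100 simulated pairs of lists, 40% of X and 60% of autosomal peaks were planted as shared, and 40.2% and 59.8% were recovered. The second list held only shifted copies of the planted peaks, in evenly spaced slots without clustering. Recovery was thus fixed by the design, so it checks the overlap counting alone and says nothing about the real lists.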

Additional observations from a re-analysis of the deposited data

How the results depend on the processing

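No paired analysis was possible because the replicate numbers that ChIP and input libraries share come without a processed file of the inputs here. Of 40 alternatives over 13 results, 24 were counted as kept. Tested differences had to keep direction and side of the 0.05 threshold (unadjusted Fisher's exact tests). The untested results had looser rules. The number of shared intervals had to stay within a set fold change, and the share in the left part within its exact binomial interval. The cause of the other changes was not tested, beyond the smaller numbers left by the stronger 50% and by merging. The difference in overlap, X minus autosomes, was 3.46 points in replicate 2 under a reciprocal overlap of 50% and 3.10 points with the stronger 50%, both no longer past the threshold, as was -2.11 points in replicate 1 with midpoints within 500 bp. The width difference lost its call after merging within 10 kb (-3.67 points in replicate 1, -2.41 in replicate 2). In replicate 2 it also did so with the stronger 50% (-7.30 points) and against the median of the score class (-4.36 points). The score difference of replicate 1, 0.43 points, turned to -1.07 points for the strongest 10% and -2.27 points after merging, without passing the threshold, while that of replicate 2 passed it for the strongest 10% (-3.71 points). The share with a neighbour differed past the threshold within 5 kb in replicate 2 (6.88 points) and turned to -2.53 points with the stronger 50%. The score difference between shared and unshared X peaks turned to -3.09 points in replicate 2 with midpoints within 500 bp. Shared X intervals numbered 167 with midpoints within 500 bp, 118 with the stronger 50% and 130 after merging within 10 kb, against 260. Under a reciprocal overlap of 50% they numbered 180, which was counted as kept. With each list alone, the means ranged from -13.5 to 7.92 points for overlap (mean -2.78 ± 15.1, SD, n = 2), from -10.6 to -8.92 points for width, from -4.42 to 0.43 points for score, from 0.686 to 1.98 points for neighbours, from 30.7 to 31.6 points for the score of shared peaks, and from 31.4% to 31.8% for the left part of X.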
